A study of Caenorhabditis elegans with 4 samples.

Results

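HTZ-1 sites on the X chromosome were taken from the peak list that covers the whole series, as every peak whose chromosome column reads X. They number 740 of 7546 peaks, and no measured value entered their choice. HTZ-1 was mapped by ChIP-seq (immunoprecipitation of cross-linked chromatin, then sequencing) in embryos of the wild-type Caenorhabditis elegans strain N2. Embryos of mixed stages came from a mixed male and hermaphrodite population kept at 20 °C, and were fixed with 2% formaldehyde for 30 min. The antibody was an affinity-purified rabbit polyclonal against the N-terminus of HTZ-1. The series holds 2 ChIP samples and 2 input DNA samples of this 1 genotype and condition, so nothing is compared between treatments. Each ChIP replicate has a peak list of its own, with 414 peaks on X in replicate 1 and 367 in replicate 2, and the list of the whole series is called the combined list here. Input samples were not analysed here, and the read depth behind the lists is unknown.

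HTZ-1, the H2A.Z of worms, is a histone variant that replaces H2A in some nucleosomes, often those flanking the start sites of genes. It is loaded by a chromatin remodelling complex of the SWR1 type. The X chromosome of C. elegans is the target of the dosage compensation complex, a condensin-containing machinery that lowers transcription from both X chromosomes of hermaphrodites. X is also known for its low content of genes expressed in the germline. In whole embryos, a site used in fewer cells and a site with less of the variant per cell cannot be told apart.

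The HTZ-1 sites on X lacked the top of the score range. Scores are the authors' values per peak and were used only as ranks within a list. The median X peak stood at percentile 48.8 of the combined list, against 48.8 to 52.1 on chromosomes I to V. In this list the difference lay in the upper tail, while in the replicate lists, given below, the X median was lower too. Only 12 X peaks, 1.62% (exact 95% binomial interval 0.841% to 2.82%), were in the upper 10% of the list, which holds 10.0% of all peaks. On the autosomes that share ran from 9.73% on V to 12.4% on III. In the upper 25% stood 94 X peaks (12.7%, interval 10.4% to 15.3%), against 24.5% on IV to 28.0% on II. Of the 75 peaks in the upper 1% of the list, 0 lay on X. For 0 of 740 peaks the exact binomial upper limit is a share of 0.497%, and the simpler limit of 3 counts is 0.405%. Such intervals and limits allow for counting error alone, and peaks close together may not be independent.

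X peaks were fewest in the top 20% of the list and most frequent in the 20% just below it. For this the combined list was divided by score percentile into 5 rank groups of 1492 to 1536 peaks, from the lowest (group 1) to the highest (group 5), a division chosen after values had been seen. Group 5, with scores of 79.85 and more, held 53 X peaks or 7.16%. On the autosomes it held between 19.8% of peaks on V and 24.2% on II. Group 4, with scores from 30.13 to 79.84, held 219 X peaks or 29.6%, against 17.7% on II to 21% on V. Group 3 held 25% of X peaks and at most 21.1% of those of any autosome. In groups 1 and 2 the X shares were 19.7% and 18.5%, beside autosomal ranges of 19.3% to 20.1% and 18.7% to 21.3%. Both the shortfall in group 5 and the surplus in group 4 stood at the smallest p the design allows, given next.

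**Figure D1:**
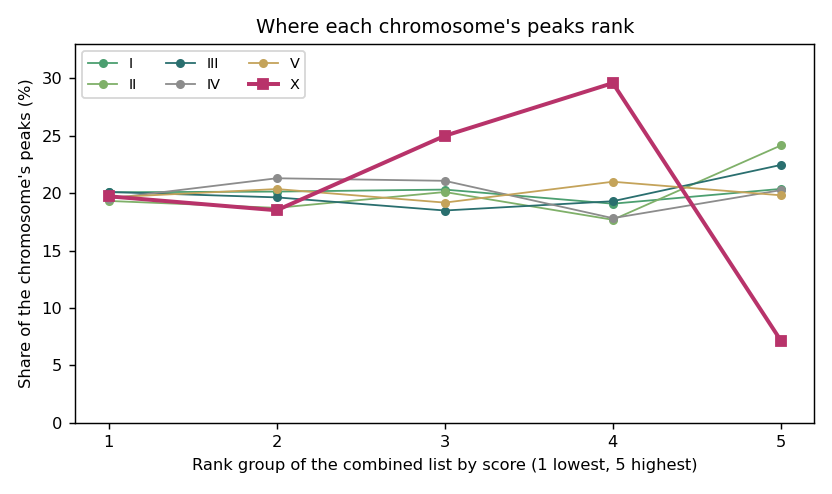
Share of each chromosome's combined-list peaks (y axis, %) in each rank group of the list by score (x axis, 1 lowest to 5 highest), with 1 line per chromosome. X (squares) reached 29.6% in group 4 and fell to 7.16% in group 5, while the autosomes lay between 17.7% and 24.2% in both.

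Differences between X and the autosomes were tested with the chromosome as the unit, because peaks of 1 chromosome share its composition and neighbourhood. All chromosomes come from the same 2 ChIP libraries, so this unit does not allow for differences between libraries. The X label was placed on each of the 6 chromosomes in turn, and the exact two-sided permutation p cannot go below 0.167 in this design. For the share in the upper 25% by score, X differed from the mean of the 5 autosomes (26.3% ± 1.54, SD, n = 5) by -13.6 percentage points, at the smallest exact permutation p of 0.167. The upper 10% gave -9.25 points (exact permutation p = 0.167). In all, 35 such contrasts were computed, 5 of them planned. In 27 of them X was farther from the mean of the other chromosomes than any autosome was. Each of these had an exact permutation p of 0.167 and an adjusted p of 0.216 (Benjamini-Hochberg over the 35). Among the planned ones, median width (exact permutation p = 0.5) and empty windows (exact permutation p = 0.333) were not of this kind. The other 30 were chosen after seeing the data and many rest on the same peaks, so the 27 are not separate results. No contrast can pass the usual threshold in this design, so the text gives the autosomal range beside each X value.

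The 10 highest-scoring X sites found in both replicates had scores between 117.2 and 159.35 and stood at ranks 115 to 660 of the whole list. The strongest, at X:238859-240252 (WormBase WS220, 1394 bp), had a score of 159.35. Its partner scored 3100 in replicate 1 and 3100 in replicate 2, a value at which many replicate scores are tied. The second, at X:229452-230802 (score 151.99), lay 8056 bp away and also stood at 3100 in both replicates. The third, at X:45955-48766 (score 144.55), was 2812 bp wide and again had 3100 in each. These were the only X peaks of the 10 with the tied score or more in both replicates, and all of them lay in the first 400 kb of the chromosome, as did the sixth (X:382143-383812, score 129.17).

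The other strong sites were scattered over the rest of X. The site at X:8108917-8110750 (score 134.08) had 3100 in replicate 1 and 2051.75 in replicate 2. The site at X:5017474-5018989 (score 129.78) had 3100 and 2279.13. The site at X:15006174-15007821 (score 125.79) had 3100 and 1834.32. As percentiles within each list, these 3 sites stood at 92.6 in replicate 1 and between 82.8 and 88.8 in replicate 2. The site at X:7474410-7475901 (score 117.2) stood at percentiles 85.03 and 84.4.

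Of the 10, 2 sites were high in the combined list but middling in both replicates. X:8791305-8792573 (score 127.75, rank 479) had partners at percentile 64.3 of replicate 1 and 66.4 of replicate 2. X:16509042-16510047 (score 118.59, rank 633), the narrowest of the 10 with 1006 bp, stood at 45.97 and 64.6. Genes and sequences at these positions were not analysed here, because the annotation used for names belongs to a different genome assembly.

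The median shared X site of the upper rank groups also stood lower in the replicate lists than the autosomal ones. These groups are broad and do not match combined rank between chromosomes. Of the 53 X peaks in group 5, 12 were in the upper 10% of the combined list. The autosomes ranged from 134 of 280 on II to 185 of 334 on III. How far this accounts for the lower replicate percentiles was not tested. In group 5 of the combined list, the median X peak had a replicate 1 partner at percentile 65.9, against 79.7 on V to 83.8 on I. In replicate 2 the median was 65.6, against 75.97 on V to 83.8 on III. In group 4 the X medians were 41.8 and 38.3, below the autosomal ranges of 45.96 to 52.3 in replicate 1 and 42.4 to 45.2 in replicate 2. X was the lowest of the 6 chromosomes in each of these 4 comparisons (exact permutation p = 0.167). In group 3 the replicate 2 median on X, 18.1, was within the autosomal range of 15.1 to 23.01. In groups 1 and 2, with only 20 and 21 shared X sites, the X medians were again below every autosome. The combined and replicate lists name different versions of the peak caller, and its part in these ranks was not tested.

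**Figure D2:**
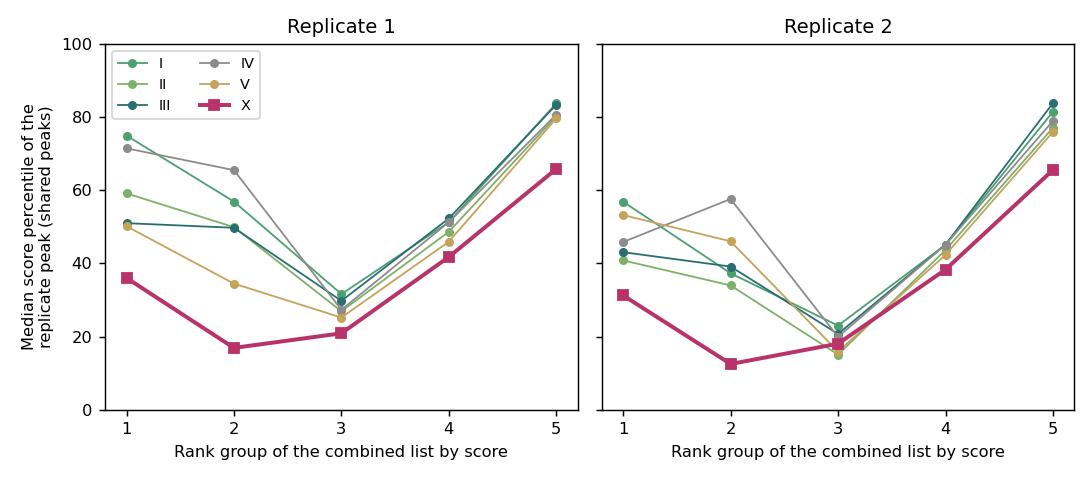
Median score percentile, within each replicate list, of the replicate peak that overlaps a combined-list peak found in both replicates (y axis), by rank group of the combined list (x axis, 1 lowest to 5 highest), with 1 line per chromosome. In groups 4 and 5 the X line (squares) lies below every autosome in both replicates, at 41.8 and 65.9 in replicate 1 and at 38.3 and 65.6 in replicate 2.

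In the replicate lists the X share of the upper 25% was smaller still, and that of the upper 10% was again below every autosome. In replicate 1, 4.11% of X peaks were in the upper 25% of the list, against 22.6% on V to 29.5% on III. There 8 X peaks (1.93%) reached the upper 10%, against 11.2% on V to 17.0% on III. Replicate 2 gave 4.63% on X for the upper 25%, against 21.6% to 30.6% on the same autosomes. In its upper 10% stood 7 X peaks (1.91%), against 7.08% on V to 15% on III. Many replicate 1 scores are tied at 3100, and its upper 10% was the set of peaks at 3100 or more. That set held a mean of 14.6% of the peaks of an autosome, so 10% is not the share to set beside the 1.93%. Its cut also differs from that of the 1.62% of the combined list. For the upper 10% the differences were -12.7 and -8.76 points (exact permutation p = 0.167 in each), against -9.25 in the combined list. Both differences for the upper 25%, -23.2 and -22.3 percentage points, stood at the smallest exact permutation p of 0.167. The median X peak stood at percentile 35.4 of replicate 1, against 49.3 on V to 56.3 on III. In replicate 2 it stood at 36.2, against 50.0 on V to 54.3 on III. Unlike in the combined list, X was thus lower at the median as well as in the upper tail.

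Support by both replicates was lower on X than on any autosome at the 1 bp overlap, by a margin that depended on the overlap asked for and on replicate 1. Of the 740 X peaks, 389 overlapped peaks of both replicates by at least 1 bp, which is 52.6% (interval 48.9% to 56.2%), while the whole list has 57.6%. Chromosome V was next with 53.3%, and the others ran from 58.7% to 59.4%. The difference from the autosomal mean was -5.32 percentage points (exact permutation p = 0.167), and it turned to 1.56 under a reciprocal overlap of 50% (exact permutation p = 0.667). Without replicate 1, with support asked of replicate 2 alone, the difference was -1.35 points (exact permutation p = 0.5), and without replicate 2 it was -5.00 points (exact permutation p = 0.333). A further 181 X peaks (24.5%) met neither replicate, close to the 23.3% of the whole list and within the autosomal range of 21.8% to 26.5%. Replicate 1 alone met 104 X peaks (14.1%), within the autosomal range of 12.8% to 14.8%. Replicate 2 alone met 66 (8.92%, interval 6.96% to 11.2%), against 5.23% in the whole list and 3.62% on IV to 7.45% on V (exact permutation p = 0.167). These 66 are not independent, since 30 of them lay under only 6 replicate 2 peaks, so the interval may be too narrow. Counted as replicate 2 peaks, 91.8% on X and 91.8% on V had a replicate 1 partner (exact permutation p = 0.333 for X against the autosomes).

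Support followed the score on X as elsewhere. In group 5 all 53 X peaks were found in both replicates, and in group 4 211 of 219 were (96.3%, interval 92.9% to 98.4%). In group 3 the share was 45.4% (interval 38.1% to 52.9%), within the autosomal range of 39.8% on V to 58.9% on IV. In groups 2 and 1 it was 15.3% and 13.7%. The autosomal values there ran from 12.1% to 23.5% and from 15.3% to 25%. X was thus the lowest chromosome in groups 1 and 4, within the range in groups 2 and 3, and at 100% in group 5, as were II to V.

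The 4 support classes on X differed in width and rank as well. The 389 sites in both replicates were the widest class, at a median of 1082 bp with quartiles of 787 and 1295 bp, and had a median percentile of 66.6. Sites in replicate 1 only had medians of 534 bp and 42.7, and those in replicate 2 only of 436 bp and 27.9. The sites in neither had medians of 286 bp and 22.9, and only 6 of those 181 stood in the upper 50% of the list. The strongest of these unsupported sites were X:14104250-14105014 (score 20.81, 765 bp), X:1977710-1978344 (20.28, 635 bp) and X:15748939-15749331 (20.25, 393 bp). All 3 stood between percentiles 53.4 and 53.8, so every unsupported X site ranked in the lower part of the list or just above its middle.

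The median X site was about as wide as those of chromosome IV, but wide sites were few. The median width of all X peaks was 675 bp (order-statistic 95% interval 617 to 736 bp), against 674 bp on IV to 779 bp on III (exact permutation p = 0.5). The upper quartile was 1110.75 bp on X and 1303 to 1419 bp on the autosomes. Only 10 X peaks, 1.35%, were wider than 2 kb, against 3.73% on V to 6.86% on III (exact permutation p = 0.167). Among peaks in both replicates the X median of 1082 bp lay 176 bp below the autosomal mean of 1258 bp ± 42.2 (SD, n = 5; exact permutation p = 0.167). Within group 5 the X median was 1380 bp and the autosomal ones 1502 to 1597 bp (exact permutation p = 0.167). X peaks also stood lower in score within that group, so widths were not compared at equal score. Across the 740 X peaks score and width ranked together with a Spearman rho of 0.864, given as a description because both values come from the same call.

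The widest X sites were not the strongest, and the top 3 by width were seen in replicate 2 only. X:109602-114270 was 4669 bp wide but had a score of 20.02, rank 3542 of the list. Its replicate 2 partner, X:108385-115094, stood at 3100, percentile 97.3, while no replicate 1 peak overlapped it. X:15807500-15811141 (3642 bp, score 20.97) had a replicate 2 partner at 2275.57, percentile 88.7, and none in replicate 1. X:291958-295230 (3273 bp, score 13.48) had one at 197.93, percentile 24.5, and none in replicate 1. The next widest, X:13595585-13598645 (3061 bp, score 38.8), was found in both replicates, at percentiles 75.03 and 78.5. The fifth was the strong site at X:45955-48766.

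**Figure D3:**
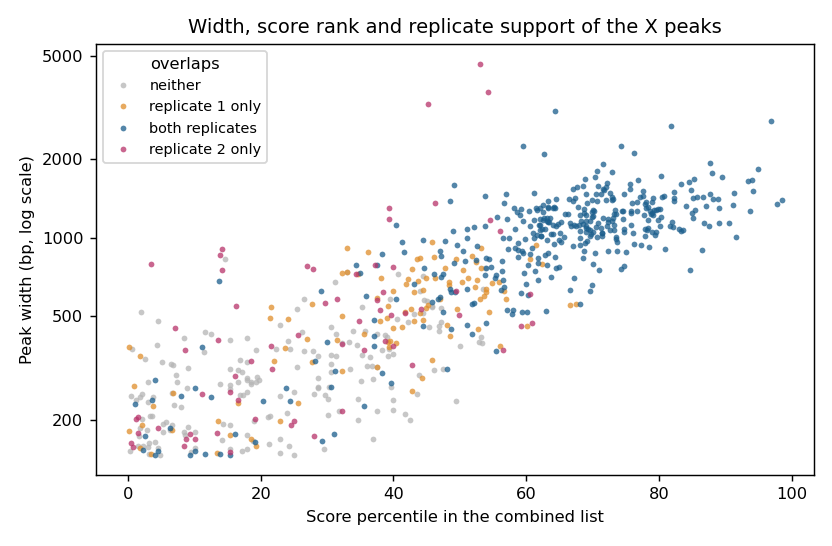
Width (y axis, bp, log scale) against score percentile in the combined list (x axis) for the 740 X peaks, coloured by the replicate lists they overlap. Sites in both replicates fill the upper right, unsupported sites stay at the lower left, and 3 replicate 2 only sites of 3273 to 4669 bp stand above all others at middle rank.

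Most of the wide replicate 2 peaks on X had no counterpart in replicate 1. Replicate 2 had 10 X peaks over 4 kb, a limit chosen after the widths were seen, and 8 of them (80%, exact binomial interval 44.4% to 97.5%) had no partner in replicate 1. On the autosomes 28 of 250 such peaks lacked a partner (11.2%, interval 7.57% to 15.8%), from 6.90% on I to 16% on V. The difference of 68.1 percentage points stood at the smallest exact permutation p of 0.167. Replicate 1 had 4 X peaks over 4 kb, of which 1 lacked a partner, and 9 of 483 on the autosomes did. Peaks this wide were scarce on X, at 2.72% of its replicate 2 peaks against 7.61% on the autosomes. In replicate 1 they were 0.966% against 14.1%. The share without a partner on X thus rests on few peaks. The 66 combined-list sites seen in replicate 2 only came from 32 replicate 2 peaks, and 6 of these held 30 of the sites (45.5%). The 30 unpartnered replicate 2 peaks on X had a median width of 2735 bp, above the 2148 bp of the partnered ones, whereas on each autosome the unpartnered peaks were narrower, with medians of 1697.5 to 2057 bp. The 8 wide unpartnered peaks began at 108385, 289132, 1751548, 9184207, 10360337, 11784842, 14384055 and 15806643 on X. The part of that 1 library in these peaks was not tested.

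Overlapping X peaks of the 2 replicates had close midpoints, but a smaller share of replicate 1 peaks had a partner than on any autosome. Of the replicate 1 peaks on X, 336 of 414 overlapped a replicate 2 peak (81.2%, interval 77.1% to 84.8%), against 85.9% in the whole list and 85.9% to 87.9% on each autosome (exact permutation p = 0.167). In the other direction 337 of 367 did (91.8%, interval 88.5% to 94.4%), against 93.6% in the whole list and 91.8% on V to 94.9% on III (exact permutation p = 0.333). The midpoints of overlapping pairs lay a median of 50 bp apart on X (quartiles 24.5 and 98.25 bp), counted from replicate 1, and 73 to 94 bp apart on the autosomes. Counted from replicate 2 the median was 51 bp, against 74 to 101.5 bp (exact permutation p = 0.167 in each). Peaks on X were also narrower in both lists, with medians of 2085.5 and 2151 bp against 2342.5 to 2547 bp and 2318 to 2477 bp. Midpoint distances were not compared at equal width. Across the 389 shared X sites the scores of both replicates had a Spearman rho of 0.845, a description over peaks of the same 2 libraries.

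The unpartnered X peaks of replicate 1 were weak, as they were on the autosomes. The strongest of the 78, at X:13237434-13239452, had a score of 424.35 and stood at percentile 34.7. Their median was 10.2, within the autosomal range of 8.42 on II to 12.5 on V. In replicate 2, 2 of 30 stood in the upper 25% of that list, both named above among the widest sites. Every replicate 1 peak on X overlapped the combined list. In replicate 2 a single X peak did not, X:2056341-2059113 (score 121.49, percentile 14.8).

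Neighbouring sites on X lay farther apart than on any autosome. The median distance from a peak's end to the next start was 11486 bp (order-statistic 95% interval 9608 to 13759 bp; quartiles 2440.5 and 31777 bp). On the autosomes the median ran from 3174 bp on I to 6579 bp on V. X stood at 2.77 times their geometric mean (exact permutation p = 0.167), and the ratio was 2.24 in replicate 1 and 2.35 in replicate 2. Distances under 1 kb made up 18.4% on X and 21.1% on V to 28.6% on IV. At the other end, 103 distances on X were at least 50 kb and 26 at least 100 kb, against 100 and 23 on V, which has more peaks, and at most 76 and 10 on the other autosomes.

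**Figure D4:**
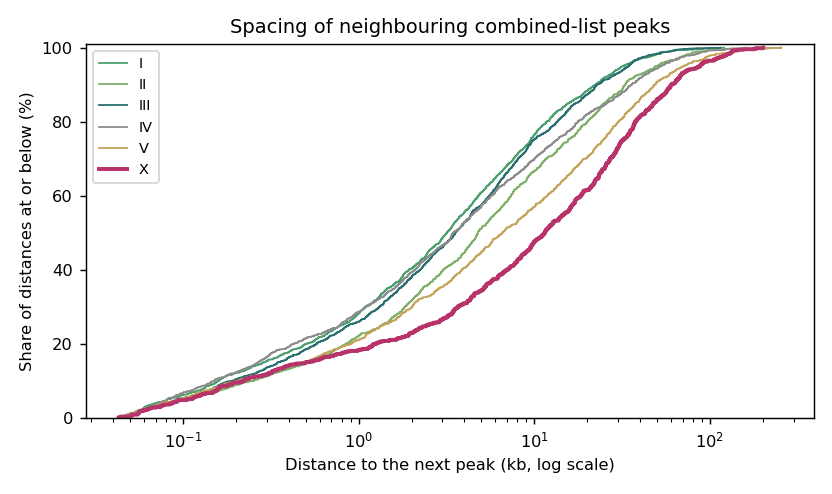
Cumulative share of distances between neighbouring combined-list peaks (y axis, %) by distance (x axis, kb, log scale), with 1 line per chromosome. The X curve (thick) runs below the others from about 1 kb to 100 kb, with a median of 11486 bp against 3174 to 6579 bp on the autosomes.

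Sites on X were often alone, and X also had the fewest sites per Mb. The combined list held 42.0 peaks per Mb on X, against 52.7 on V to 113 on I. Spacing, lone sites, runs and crowded windows were not corrected for this density, so they are not separate traits of X. No other peak lay within 10 kb of 199 X peaks (26.9%), against 6.67% on I to 20.6% on V (exact permutation p = 0.167). Of these lone sites 114 (57.3%) were found in both replicates, against 50.8% of the other X peaks, and their median percentile was 57.9 against 46.1, differences that were not tested. Both values of the lone X sites lay within the autosomal ranges for lone sites, 51.6% on IV to 60.1% on II and percentiles of 55.9 on IV to 63.0 on I. Of the other autosomal peaks, 52.7% on V to 60.4% on IV were found in both replicates. Runs of peaks less than 1 kb apart held 248 X peaks (33.5%) in 112 runs, against 36.5% on V to 48.0% on I (exact permutation p = 0.167). Pairs made up 95 of these runs, 13 were of 3 peaks and 4 were longer. A replicate 1 peak on X held more than 1 combined-list peak in 17.1% of cases, against 21.9% on V to 33.1% on I. In replicate 2 it was 17.7%, next to 17.9% on V.

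Among full bins of 1 Mb along X, the left end and the stretch from 14000001 to 15000000 held the most sites. In bins of 1 Mb counted from the first base, the first held 65 peaks, the most of the 17 full bins. The 15th followed with 57, the second with 53 and the fifth with 52. The fewest were in the seventh bin, from 6000001 to 7000000, with 27 peaks, and in the 13th with 28. The median was 39. The last, incomplete bin held 35 peaks up to the furthest peak end at 17611627, or 57.2 per Mb of that stretch, close to the 15th bin. The full length of X was not used here, so this density depends on where the peaks end. The replicate lists put 30 and 32 peaks in the first bin and 31 and 33 in the 15th, their highest counts on X.

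Support varied along X as well. The share of peaks found in both replicates ran from 34.8% in the 11th bin to 74.3% in the eighth, which had only 35 peaks. Full bins held 27 to 65 peaks, so each share is imprecise, and the part of counting error in this range was not tested. Of the 46 peaks of the 11th bin, 11 were fragments under 1 wide replicate 2 peak, described below. Both the support and the median width of that bin therefore depend in part on 1 call. In the first bin it was 50.8%, in the second 35.8% and in the 15th 63.2%. The eighth and 16th bins had the widest sites, with median widths of 1015 and 1017 bp, and percentiles of 62.1 and 62.6. The 11th and second had the narrowest, at 471 and 449 bp. Across 176 windows of 100 kb the number of sites in both replicates and the number in neither had a Spearman rho of 0.0837, and counts of the 2 replicate lists one of 0.839. Windows of 1 chromosome and library are not independent, so no p is given.

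**Figure D5:**
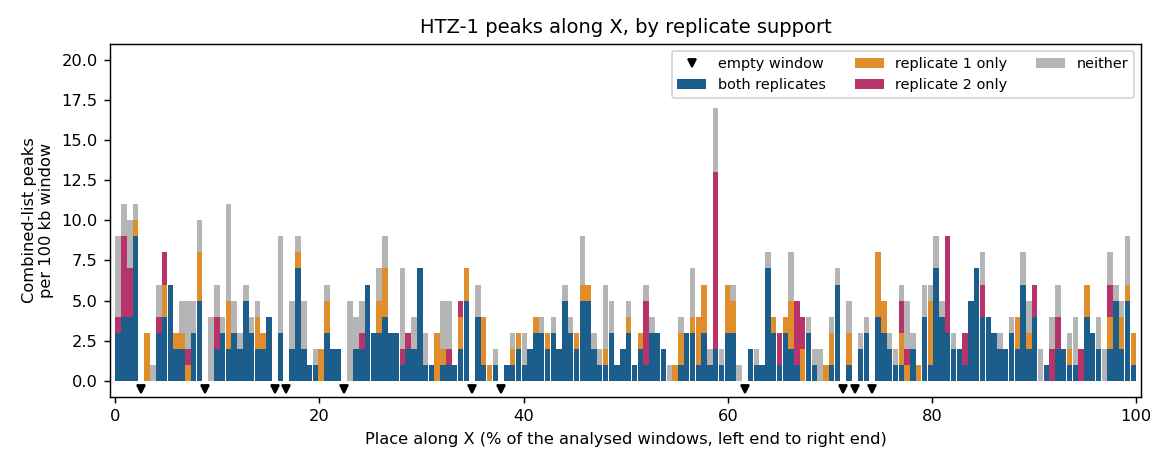
Combined-list peaks per 100 kb window along X (y axis), stacked by the replicate lists they overlap, against place along the chromosome (x axis, % of the 176 windows). Black triangles mark the 11 empty windows, and the tallest column, with 17 peaks, consists mostly of peaks found in replicate 2 only.

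The most crowded 100 kb window of X drew most of its peaks from a single wide peak of replicate 2. It ran from 10300001 to 10400000 and held 17 peaks, of which 11 overlapped replicate 2 only, 4 neither and 2 both. All 11 lay under 1 replicate 2 peak, X:10360337-10369834, the widest of that list on X with 9498 bp, whose score of 210.03 stood at percentile 25.4. These 11 fragments were 157 to 789 bp wide, stood between percentiles 0.543 and 37.2 of the combined list, and covered 37.3% of the wide peak. The 2 sites in both replicates in that window were X:10377254-10379511 (score 63.78) and X:10390550-10391776 (score 49.84). In each replicate list the most crowded X window held 7 peaks. Without the peaks found in replicate 2 only, the highest count in the combined list was 11.

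The next most crowded windows began at 100001, 300001 and 1900001, with 11 peaks each, and at 200001 and 1400001, with 10 each. Of these 5, 3 lay in the first 400 kb. They differed in support. From 300001 to 400000, 9 of 11 peaks were found in both replicates, the highest number of such peaks in any X window. From 100001 it was 4 of 11, with 5 in replicate 2 only, and from 1900001 it was 2 of 11, with 6 in neither. Windows with 10 peaks or more made up 3.41% of X and 8.61% of V, but 31.4% to 61.6% of the other autosomes (exact permutation p = 0.333).

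Some windows of X held no site. Of the 176 windows, 11 (6.25%) held no combined-list peak. None of the 11 held a midpoint of either replicate list, which adds little, since all but 1 of the replicate peaks on X overlap the combined list. Chromosome V had 6.70%, IV 2.86% and I to III 0%, so X was not the most extreme (exact permutation p = 0.333). The count depends on where windows begin, since 5 were empty when they were shifted by 50 kb. Measured as distance, the longest stretch without a combined-list peak was X:3804010-4005233 (201.2 kb). It was followed by X:12670957-12854218 (183 kb), X:6551255-6729285 (178 kb), X:8911835-9067108 (155 kb) and X:389526-532835 (143 kb). Chromosomes IV and V had longer ones, of up to 255 and 252 kb. The last of the 5 on X began inside the crowded window from 300001.

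In the replicate lists the bare stretches were longer. The longest of replicate 1, X:3804392-4144631 (340 kb), and the second of replicate 2, X:3804602-4144655 (340 kb), were nearly the same interval. It contained 5 combined-list sites, all in neither replicate and none above percentile 39.1. The longest of replicate 2 was X:12019214-12392711 (373 kb), where replicate 1 had 3 peaks, and the second of replicate 1 was X:12019153-12293041 (274 kb). The third in replicate 1 was X:2858419-3089029 (231 kb) with 6 unsupported sites, and in replicate 2 X:390072-726880 (337 kb), where replicate 1 had 2 peaks.

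The outermost X sites differed in support. The first X peak began at base 1 (X:1-314, score 5.63, percentile 21.6) and was found in replicate 2 only, at percentile 10.2 of that list. The last, X:17610160-17611125 (score 62.08, percentile 73.7), was found in both, at percentiles 38.96 and 44.8. The full length of X was not used here, so what lies beyond the last peak entered no count of empty windows or stretches.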

How the data were processed

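Peaks of the HTZ-1 ChIP samples were taken as the authors deposited them, in 3 lists of intervals. Their build is WS220, per the file headers. The deposited score of each peak comes from MACS in the replicate lists and MACS v2 in the combined list, per the files' source column. Its scale, the thresholds, the read filters, the use of input and how the combined list was made are not given in the sources used here. BWA and ce10 are named in the submitters' processing notes.

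Members and lists were chosen with earlier results of these data known. Percentiles and ranks use all peaks of a list. Distances run from a peak's end to the next start, and windows count midpoints. A last window counts when at least 50% of it lies within the furthest peak end of any list. Shares carry exact (Clopper-Pearson) 95% binomial intervals. Medians carry order-statistic intervals. X was compared with I to V by exact permutation over 6 chromosomes. Named are, among X peaks, the 10 strongest found in both replicates, the 5 widest, the 3 strongest in neither, the first and last, the densest and emptiest stretches, and replicate peaks without an overlap. Contrasts beyond the 5 planned, the rank groups, runs, isolation, crowded windows and the 2 kb and 4 kb limits were chosen after seeing the data. No label ties a replicate to its own culture, so spread between the replicates may be technical. Overlap, merging and window counts were tested on simulated data. Python 3.11.15, numpy 2.4.6, pandas 2.3.3 and scipy 1.17.1 were used.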

Additional observations from a re-analysis of the deposited data

How the results depend on the processing

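No paired analysis was possible because no test compares ChIP with input, and the input samples were not analysed here. Of 29 alternatives for differences between X and the autosomes, 27 kept the direction. The other two turned it. Under a reciprocal overlap of 50% the difference in the share found in both replicates was 1.56 points, and with 200 kb windows the difference in empty windows was -0.42 points. With support asked of 1 replicate only, the supported share of X peaks was 61.5% to 66.6% and the difference -5.00 to -1.35 points, the smaller one without replicate 1 (exact permutation p = 0.5). Reciprocal overlap left 25.5% of X peaks in both replicates. In the top 50% by score the share was 88.9%, the median width 1110 bp and the median distance 30060 bp. Merging peaks less than 1 kb apart gave 959.5 bp, 17443 bp and, in an alternative chosen after seeing the data, 7.95% in the upper 25%. Peaks in both replicates gave 1082 bp, 25167.5 bp, 6.68% in the upper 25% of that set, 31 empty windows (17.6%) and a longest empty stretch of 374.6 kb. The replicate 1 list gave 2085.5 bp, 24625 bp, 4.11%, 21 windows (11.9%) and 340.2 kb. The replicate 2 list gave 2151 bp, 28560.5 bp, 4.63%, 26 windows (14.8%) and 373.5 kb. The upper 50% held 48.6% of X peaks and the upper 10% held 1.62%. Empty windows numbered 69 (19.6%) at 50 kb, 0 (0%) at 200 kb and 5 (2.84%) when shifted by 50 kb. In the top 50% of each replicate list, 100% of replicate 1 peaks and 95.96% of replicate 2 peaks on X had a partner. The causes were not tested.

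Only 6 chromosomes enter each contrast, and 2 libraries stand behind the replicate lists. Read depth is unknown, so an empty stretch means that no peak was called there.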
